A study of Mus musculus with 10 samples.

Results

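The nuclear genes for subunits of the oxidative phosphorylation machinery were followed across 5 tissues of adult female C57BL/6 mice: muscle, pancreas, hypothalamus, liver and white adipose tissue. Members were all probe sets with a single gene symbol that starts with Nduf, Uqcr, Atp5 or Cox4 to Cox8, or that is Sdha to Sdhd, Cyc1 or Cycs. They number 59 of 6137 named genes, read by 68 of 13057 probe sets, with 52 of these on the A chip and 16 on the B chip of a one-colour Affymetrix pair. The name pattern also took in Ndufaf1 and Ndufaf4, which assist the assembly of complex I, and Cox7a2l, a factor of respiratory supercomplexes. None of the mice is labelled as mutant or treated, and each tissue was hybridised once to each chip, so there are 10 arrays and no replicates. For that reason no test was possible and no spread between mice is known, and precision is limited by how few arrays there are. For the adipose arrays the labels differ: the title names a preconfluent state and the source names white adipose tissue. They are called the adipose-labelled sample. These are bulk tissues, in which fewer cells of a type and less RNA per cell cannot be told apart.

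Oxidative phosphorylation makes most of the ATP of resting and working tissues. Complex I (NADH dehydrogenase, Nduf genes) and complex II (succinate dehydrogenase, Sdh genes) pass electrons to ubiquinone, complex III (Uqcr genes and Cyc1) hands them to cytochrome c (Cycs), and complex IV (cytochrome c oxidase, Cox genes) gives them to oxygen. The proton gradient that results drives complex V, the ATP synthase (Atp5 genes). Most subunits come from 1 form of a gene in all tissues, but a few of complex IV, among them COX6A and COX8, come in a form of the heart and skeletal muscle, written Cox6a2 and Cox8b in the mouse, and in a form of the liver and most other organs, Cox6a1 and Cox8a.

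The tissues carried their defining messages. All 6 fast muscle markers, 6 liver markers, 6 neuron markers and 6 white adipocyte markers and all 3 measured acinar markers had their highest value in the tissue of their label. The 2 with the largest contrast there were Prss2 (10.62) and Amy2a5 (10.42) of the acinar list, a trypsinogen and an amylase, and Atp2a1 (9.71) and Tnnt3 (8.77) of the fast muscle list, a calcium pump and a troponin. In the other lists they were Apoh (7.55) and Cyp2d26 (6.74) in liver, Thy1 (6.12) and Gad1 (6.03) in hypothalamus, and Cidec (6.59) and Fabp4 (6.06) in the adipose-labelled sample. Each array has a noise bound, set by how far below 0 its lowest 1 percent of values begins, which ran from 258 to 1166 on chip A and from 649.5 to 2608 on chip B, and was highest for pancreas in both cases, followed by muscle. A value is an intensity scaled to a common trimmed mean, and a fold against a value under the noise bound is set against the bound and given as "at least". A contrast is the log2 difference between a tissue and the average of the other 4, where values under 175 (chip A) or 123 (chip B) were first set to that floor. Among 31 genes with a second probe set above noise on every array, contrasts of the 2 probe sets differed by a median of 0.28 and by 0.75 at the 90th percentile. Among 8 endogenous probe sets present on both chips the median difference was 0.16.

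Muscle held the highest value of most members. Of the 59 member genes, 44 were highest in muscle, against 22.5% of all named genes, while 3 were highest in pancreas (23.5% of all), 3 in liver (10.1%), 3 in hypothalamus (16.5%) and 5 in the adipose-labelled sample (10.3%). Of the members, 35 lay above the noise bound on all 5 arrays, 17 on 1 to 4 arrays and 7 on none. Among the 35, 31 were highest in muscle, against 28.9% of the 499 genes above noise on all arrays. The other 4 of the 35 were Uqcrq in liver, Atp5j2 in hypothalamus, and Cox8a and Ndufb7 in the adipose-labelled sample, where the shares of all such genes were 9.02%, 14.6% and 8.22%, and none was highest in pancreas (39.3%). The median contrast of the 59 genes was 1.04 in muscle, where that of all genes was 0.00 and that of the 499 genes was 0.46. With the arrays scaled by quantiles, by spikes or by the probe sets above noise, 38 of the 59 were highest in muscle. The shares of all named genes were then 19.8%, 25.2% and 20.6%.

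Pancreas held the lowest value of most members above noise. Of the 35 members above noise everywhere, 24 had their lowest value in pancreas (15.6% of such genes), 6 in the adipose-labelled sample (12.8%), 2 in liver (30.9%), 2 in hypothalamus (29.1%) and 1 in muscle (11.6%). Of 45 members above noise in the other 4 tissues, 10 were not above noise in pancreas, 22.2% against 39.1% of all genes above noise in those 4 tissues, so this count does not set the members apart. The pancreas bound is the highest of each chip. Of 36 above noise outside muscle, 1, Cox6a1, was not above noise in muscle (24.0% of all genes above noise outside muscle). The median contrast of the 59 genes in pancreas was -0.84, against 0.00 for all genes and 0.48 for the 499 genes above noise on all arrays. With arrays scaled by the hybridisation spikes, all 35 were lowest in pancreas, but so were 78.6% of all genes above noise, whose median contrast in pancreas moved by -2.28 under that scaling.

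**Figure D1:**
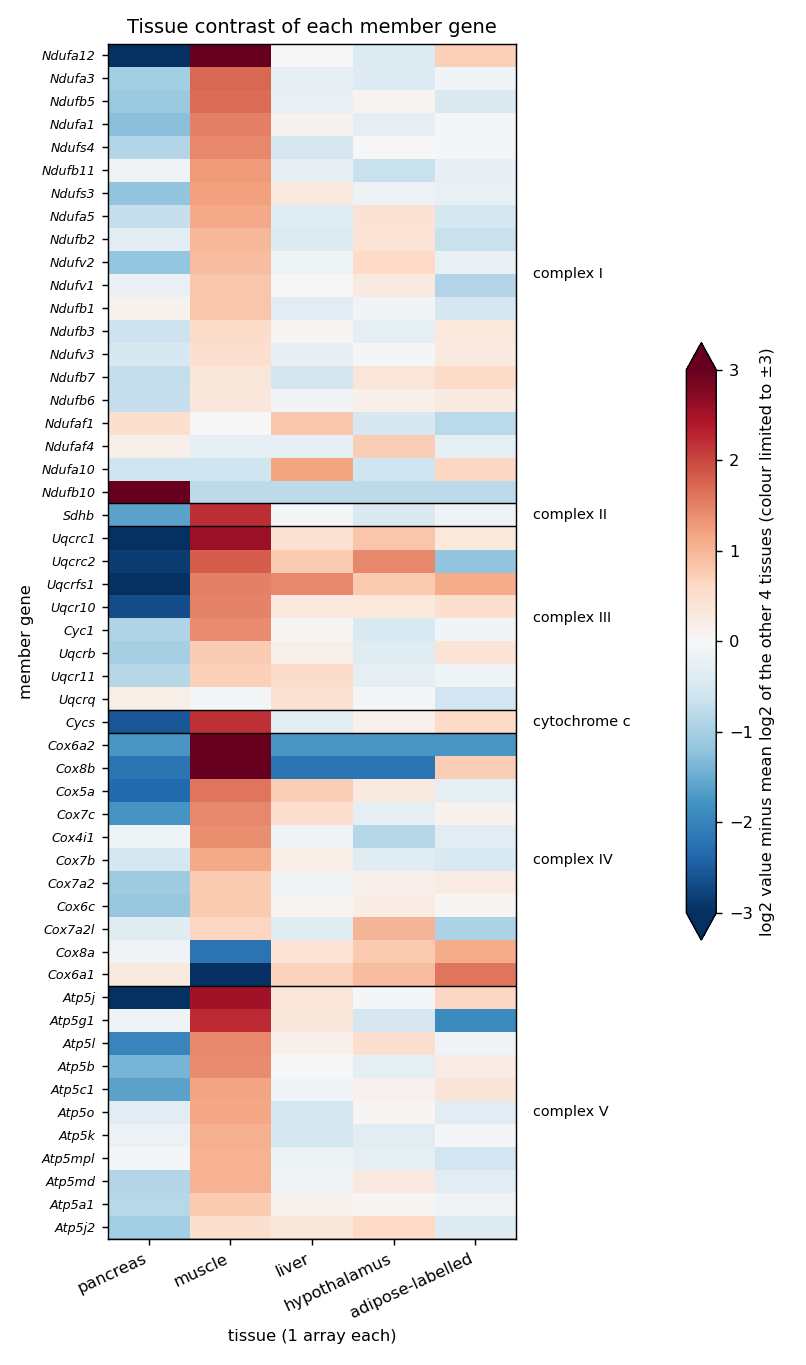
Contrast (log2 difference from the average of the other 4 tissues) of the 52 member genes above noise on at least 1 array, with a row for each gene, grouped by complex, and a column for each tissue. The muscle column is red for 42 genes that are highest there, with blue cells at Cox6a1 (-3.53) and Cox8a (-2.21), and the pancreas column is blue for most rows.

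The size of the shift was read against other genes of similar visibility. The 499 genes above noise on all arrays had median contrasts of 0.48 in pancreas, 0.46 in muscle, -0.42 in liver, -0.30 in hypothalamus and -0.16 in the adipose-labelled sample. The 35 members had -0.86, 1.08, -0.05, -0.06 and -0.11 in the same order. Minus the median of those genes, the member median was 0.62 in muscle, 0.37 in liver, 0.24 in hypothalamus, 0.04 in the adipose-labelled sample and -1.34 in pancreas. Each contrast is taken against an average that includes pancreas. Without the pancreas arrays the same difference of medians was 0.39 in muscle, 0.05 in liver, -0.10 in hypothalamus and -0.27 in the adipose-labelled sample. That setting also changed the genes, with 45 members above noise on all remaining arrays in place of 35 and other genes added likewise. The effect of the changed genes and that of the removed tissue were not separated. The relative value of muscle ranged from 0.39 to 0.87 and that of pancreas from -1.47 to -0.75 over all settings tried. The order muscle, liver, hypothalamus, adipose-labelled sample, pancreas held under the scalings by trimmed mean, 75th percentile, spikes and probe sets above noise. Those scalings multiply all values of an array by a common factor, which moves members and other genes together. They could therefore hardly change this order. With quantile normalization, hypothalamus came before liver. Being above noise on all arrays asks for higher values in pancreas and muscle, so members that were low in pancreas are missing from the 35.

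**Figure D2:**
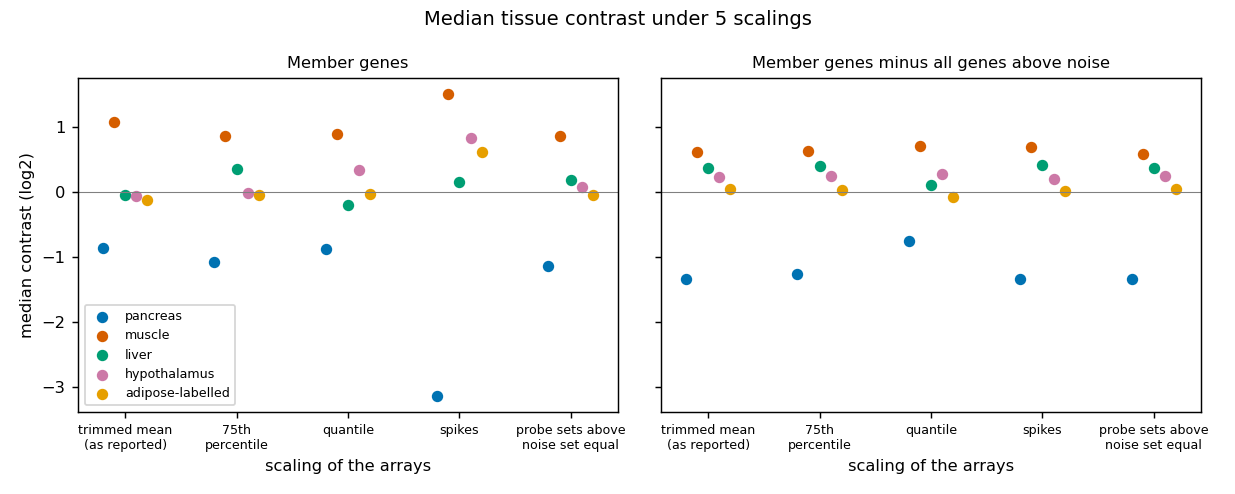
Median contrast in log2 units under 5 scalings of the arrays (x axis), for the member genes above noise on all arrays (left) and for the same median minus that of all genes above noise (right), with 1 point for each tissue. On the left the points move with the scaling, as in pancreas from -0.86 to -3.14 with spikes. On the right pancreas stays lowest and muscle highest in each scaling. All scalings but the quantile one multiply an array by a common factor, which the subtraction on the right largely removes.

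Between pairs of tissues, the 35 members were a median of 1.92-fold higher in muscle than in liver, with 33 higher in muscle, where the 499 genes were 1.65-fold higher and 71.3% of them were higher in muscle. Against hypothalamus the muscle median was 1.78-fold (1.51-fold over the 499 genes), with 31 of 35 members and 68.7% of the 499 genes higher. Against the adipose-labelled sample it was 2.16-fold (1.39-fold), with 33 members and 68.9% of the 499 genes higher. Pancreas read a median of 0.377 times the muscle value, where the 499 genes read 1.12 times it. Liver, hypothalamus and the adipose-labelled sample lay close together. Liver over hypothalamus was 0.925 at the median, with 17 of 35 members and 45.9% of the 499 genes higher in liver. Hypothalamus over the adipose-labelled sample was 1.02, with 18 of 35 members and 43.9% of the 499 genes higher in hypothalamus. These pairs share arrays, so their values are not independent of each other.

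A member was called for a tissue where its floored value was at least 2 times that of every other tissue. There were 16 such members in muscle (7.51% of all genes), 2 in pancreas (9.81%) and none in liver (4.68%), hypothalamus (6.44%) or the adipose-labelled sample (3.16%). With a value above noise as well, 15 remained in muscle (3.44% of all genes) and 1 in pancreas (4.60%). The 15 were Ndufa1, Ndufa3, Ndufa12, Ndufb5, Ndufb11 and Ndufs4 of complex I, Sdhb, Uqcrc1 and Cyc1, Cycs, Cox4i1, Cox6a2 and Cox8b, and Atp5g1 and Atp5j of complex V. The count of 16 was 10 with 75th percentile scaling (5.77% of all genes), with spike scaling (8.49%) and with probe sets above noise set equal (6.37%). It was 8 with quantile normalization (5.91%).

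Complex I is the largest, and 22 genes on the chips were counted to it by name, the assembly factors Ndufaf1 and Ndufaf4 among them. Of the 22, 14 were above noise on all arrays and 13 of these were highest in muscle (28.9% of all genes above noise on all arrays). The median muscle contrast was 0.88 over the 22 genes and 1.06 over the 14, from 0.33 (Ndufb7) to 1.73 (Ndufa3). Ndufa12, an accessory subunit, read 334 in pancreas, 13356 in muscle, 2326 in liver, 1847 in hypothalamus and 3454 in the adipose-labelled sample. Muscle stood alone at the top, 3.87-fold above the next tissue and at least 5.12-fold above pancreas. Ndufa3, another accessory subunit, read 5764 in pancreas, 26279 in muscle, 8727 in liver, 8179 in hypothalamus and 9653 in the adipose-labelled sample. Ndufa1, a small membrane subunit, read 5647 in pancreas, 25973 in muscle, 11888 in liver, 9549.8 in hypothalamus and 10852 in the adipose-labelled sample. In both, muscle was highest, pancreas lowest and the other tissues close together.

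Ndufb5 and Ndufs4 had the same shape at a lower intensity. Ndufb5, of the membrane arm, read 1895 in pancreas, 8863 in muscle, 3088 in liver, 3665 in hypothalamus and 2765 in the adipose-labelled sample. Ndufs4, a subunit whose loss is a known cause of Leigh syndrome, read 1893, 6841, 2349.7, 3080.3 and 3015 in the same order. The core subunits of the arm that accepts electrons had muscle contrasts of 1.24 (Ndufs3), 0.84 (Ndufv1) and 0.93 (Ndufv2). Ndufs3 read 1885 in pancreas, 7173 in muscle, 4273 in liver, 3329 in hypothalamus and 3215 in the adipose-labelled sample. Ndufv1, which binds NADH and the flavin, read 5269 in muscle, 3845 in hypothalamus, 3279 in liver, 2951 in pancreas and 2030 in the adipose-labelled sample, its lowest tissue. Ndufv2, an iron-sulfur partner of Ndufv1, read 5064 in muscle, 4192 in hypothalamus, 2822 in liver, 2665 in the adipose-labelled sample and 1578 in pancreas.

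Ndufa5, Ndufb1, Ndufb2, Ndufb3 and Ndufv3, accessory subunits, were also highest in muscle, with contrasts from 0.50 (Ndufv3) to 1.13 (Ndufa5). For Ndufb3 and Ndufv3 the margin over the adipose-labelled sample was 0.18 and 0.17 on the log2 scale. Probe sets of a gene differed by more than that at the median (0.28). Ndufb11, a membrane subunit, read 5825 in pancreas, 12672 in muscle, 5395 in liver, 4288 in hypothalamus and 5421 in the adipose-labelled sample, so that muscle was highest and hypothalamus lowest. Ndufb6 was highest in muscle by a small margin, with 1282 in muscle, 1239 in the adipose-labelled sample, 1169 in hypothalamus, 1024 in liver and 729 in pancreas.

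Other complex I genes were not highest in muscle. Ndufb7 read 5263 in the adipose-labelled sample, 4732 in hypothalamus and 4620.1 in muscle, values that differ by less than probe sets of a gene do, and 2592 in pancreas. Ndufb10 was the one member called for pancreas with a value above noise: it read 1546 there, -238 in muscle, -20.0 in liver, -50.7 in hypothalamus and -54.3 in the adipose-labelled sample, at least 1.45-fold above the muscle bound. The 2 probe sets of Ndufa10 named different tissues, liver at 468 for one and pancreas at 384 for the other, and the second was below noise in pancreas. Both assembly factors were weak everywhere. Ndufaf1 read 665 in liver and 325 in hypothalamus, above noise in these alone, and Ndufaf4 read 308 in hypothalamus, above noise there alone. Ndufab1, the mitochondrial acyl carrier protein, and Ndufa11 were below noise in all tissues.

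Of complex II, 3 of 4 genes were on the chips and 1 was visible. Sdhb, the iron-sulfur subunit, read 1752 in pancreas, 14481 in muscle, 4149 in liver, 3354 in hypothalamus and 4005 in the adipose-labelled sample. It was 3.49-fold higher in muscle than in liver and 8.26-fold higher than in pancreas, and the 3 remaining tissues lay within 1.24-fold of each other. Its probe set is of family design, which may bind messages of related genes. Sdhc, a membrane anchor, read 359 in muscle, 156 in liver, 114 in pancreas, 99.5 in hypothalamus and 89.4 in the adipose-labelled sample. Sdhd, the other anchor, read 34.1 in muscle, -49.6 in hypothalamus, -101 in the adipose-labelled sample, -123 in liver and -276 in pancreas, and both were below noise in every tissue.

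Of the 8 genes of complex III, 4 were above noise on all arrays and 4 more on all but the pancreas array. The median pancreas contrast of the 8 was -1.82, with 4 values under the noise bound. It was -1.06 with the highest noise bound as floor and -0.88 over the 4 genes above noise on all arrays, where that of complex V was -0.86. Uqcrc1, a core protein, read -787 in pancreas, 7458 in muscle, 2317 in liver, 2847 in hypothalamus and 2136 in the adipose-labelled sample. Uqcrfs1, the Rieske iron-sulfur protein, read -103 in pancreas, 5811 in muscle, 5584 in liver, 3881 in hypothalamus and 4652 in the adipose-labelled sample, so that muscle and liver were 1.04-fold apart. Uqcr10, a small subunit, read 797 in pancreas, 7967 in muscle and 4123 to 4612 elsewhere, at least 3.53-fold above the pancreas bound in each. In these 3 genes pancreas was the one tissue under its noise bound.

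Uqcrc2, the second core protein, split the tissues another way. It read 4261 in muscle, 3470 in hypothalamus, 2400 in liver, 813 in the adipose-labelled sample and 321 in pancreas. The adipose-labelled sample was thus 5.24-fold below muscle and 4.27-fold below hypothalamus, whereas for Uqcrc1, its partner, it lay 1.33-fold below hypothalamus. Cyc1, the cytochrome c1 that passes electrons on, read 3549 in pancreas, 12822 in muscle, 5946 in liver, 4544 in hypothalamus and 5592 in the adipose-labelled sample. Uqcrb, which borders the ubiquinone site, read 4152 in muscle, 3408 in the adipose-labelled sample, 2999 in liver, 2223 in hypothalamus and 1566 in pancreas. Uqcr11 was close between muscle, at 7763, and liver, at 7077, with 3246 in pancreas. Uqcrq did not follow either pole: it read 6887 in liver, 5886 in pancreas, 5290.3 in hypothalamus, 5286 in muscle and 3921 in the adipose-labelled sample, and all 5 tissues lay within 1.76-fold. The median muscle contrast of the 8 genes was 1.46, and 0.72 without the pancreas arrays.

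Cytochrome c, the soluble carrier, had 2 probe sets on chip B. The one of family design read 1488 in pancreas, 20888 in muscle, 5157 in liver, 6678 in hypothalamus and 8548 in the adipose-labelled sample, 2.44-fold above the next tissue in muscle. The other read 1947, 7451, 3091, 2853 and 3599 in the same order. Both put muscle first, the adipose-labelled sample next and pancreas last, with pancreas below its noise bound of 2608. Cyct, the testis form of cytochrome c, which the name pattern does not include, read 537 in muscle, 303 in hypothalamus, 52.2 in the adipose-labelled sample, -17.0 in liver and -191 in pancreas, below noise in all 5.

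**Figure D3:**
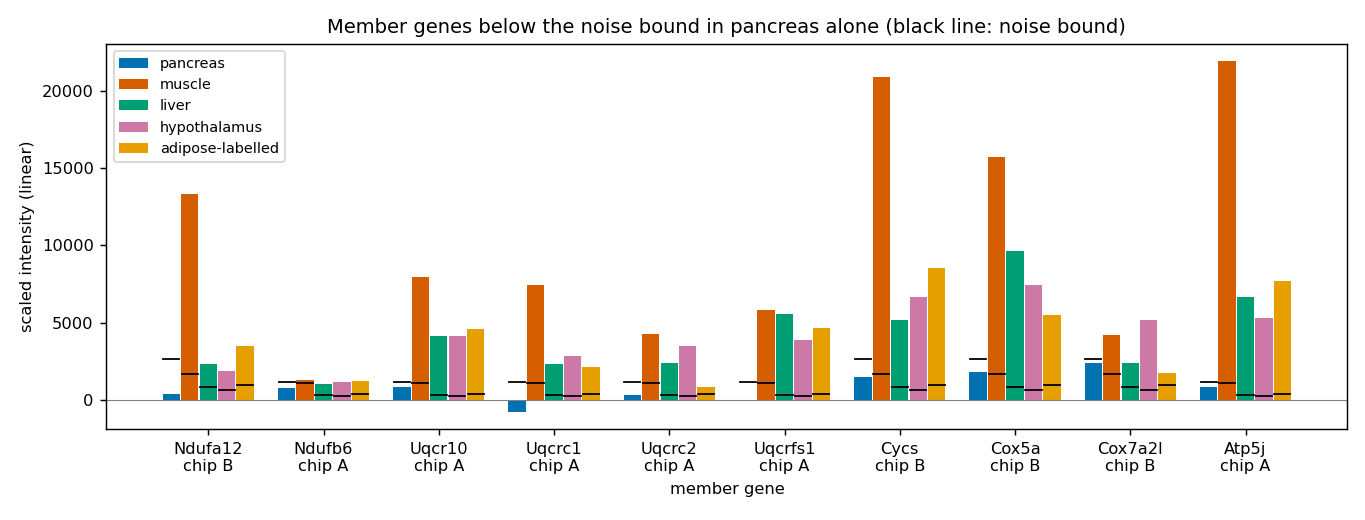
Scaled intensity on a linear axis of the 10 member genes that were below the noise bound in pancreas alone, with 1 bar for each tissue, 1 array for each bar and a black line at the noise bound of the array. Pancreas bars lie under their line for all 10, and the muscle bar is the tallest for all but Cox7a2l, which is tallest in hypothalamus (5144).

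Complex IV held both the largest and the most negative muscle contrasts. Of the 12 genes counted to it by name, Cox7a2l among them, 8 were highest in muscle (22.5% of all genes), and its median muscle contrast was 0.95. It was 0.12 without probe sets of relaxed design, over 5 genes, and 0.45 on chip A alone, over 8. The 0.12 is the contrast of the chip A probe set of Cox7c, which was below noise in every tissue. The 0.45 lies between that contrast and the 0.77 of Cox6c, so neither value measures the complex well. Cox6a2 read 21755 in muscle on chip A and -585 in pancreas, -217 in liver, -115 in hypothalamus and -434 in the adipose-labelled sample. Its probe set on chip B read 25893 in muscle, 114 in hypothalamus, -144 in pancreas, -375 in liver and -555 in the adipose-labelled sample. Muscle was the only tissue above noise on both chips, at least 18.7-fold above pancreas and at least 84.3-fold above hypothalamus on chip A. Cox6a1, the form of most other organs, read 729.6 in muscle, under the bound of 1065, and 6073 in pancreas, 7589 in liver, 8651 in hypothalamus and 12582 in the adipose-labelled sample. The other 4 tissues were all above muscle, by at least 5.70-fold in pancreas to at least 11.8-fold in the adipose-labelled sample.

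The COX8 pair repeated this opposition. Cox8b read 14643 in muscle, 883 in the adipose-labelled sample, and -113 in pancreas, -35.9 in liver and -115 in hypothalamus. It was above noise in muscle and the adipose-labelled sample alone, 16.6-fold apart, and muscle was at least 12.6-fold above the pancreas bound. Cox8a read 2132 in muscle, 6870.0 in pancreas, 9152 in liver, 11147 in hypothalamus and 13384 in the adipose-labelled sample, so that the 4 tissues were 3.22-fold to 6.28-fold above muscle. For both pairs the form of most organs had the same order of tissues, from the adipose-labelled sample through hypothalamus, liver and pancreas to muscle. All neighbours in that order but the last lay within 1.45-fold. Cox8c, the testis form, read 373 in pancreas, 130.3 in muscle, 228 in liver, 162 in hypothalamus and 128 in the adipose-labelled sample, below noise in each. The contrasts of probe sets of different genes can be compared but their levels cannot, so the share of each form in a tissue was not read. The probe sets of Cox6a1, Cox6a2 and Cox8b are of family design and that of Cox8a is not.

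**Figure D4:**
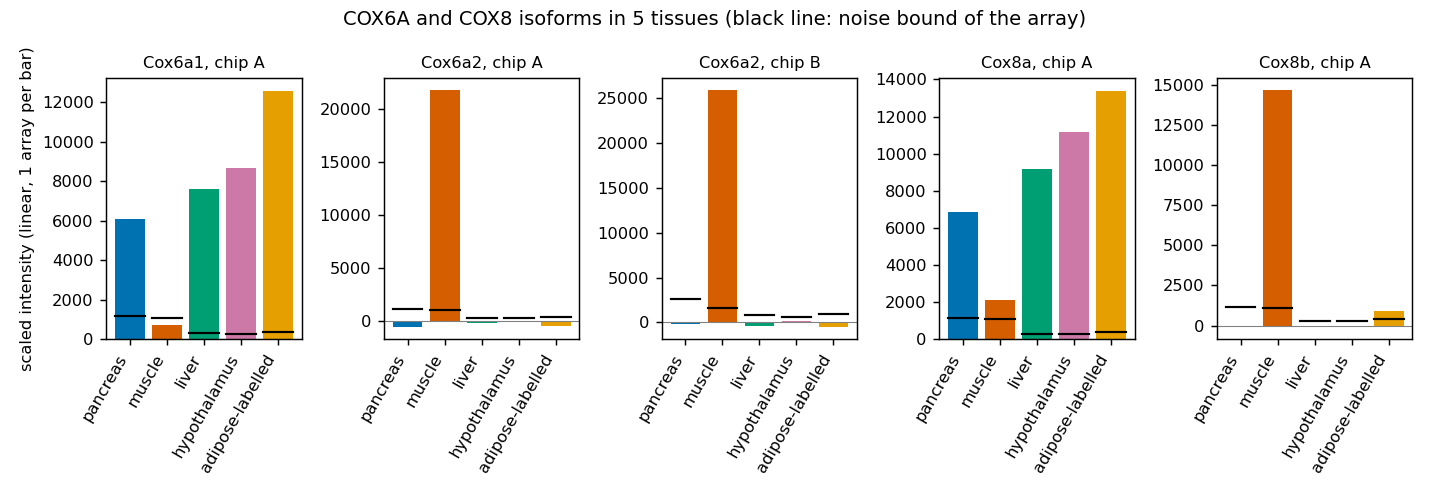
Scaled intensity on a linear axis (y axes differ) of the COX6A and COX8 isoforms in the 5 tissues, with 1 array for each bar and a black line at the noise bound of the array. Cox6a2 on both chips and Cox8b are tall in muscle alone (21755, 25893 and 14643), and Cox6a1 and Cox8a are lowest in muscle (729.6 and 2132).

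The second tissue with Cox8b signal was the adipose-labelled sample, where brown fat, in which Cox8b is also known to be expressed, was looked for. Of the 4 brown adipocyte markers on the chips, none was above noise there: Ucp1, the uncoupling protein, read 121, Cidea 185, Elovl3 169 and Zic1 -24.1. All 4 values are under noise and their sum was not read. Of the 6 fast muscle markers 2 were above noise in it. Acta1, skeletal actin, read 1063 there, 73140.0 in muscle and 52.9 to 320 in the other 3 tissues. Ckm, the muscle creatine kinase, read 2301 there, which is no higher than its 2395 in liver, and 159170.0 in muscle. For sums, values below 0 were counted as 0. The 4 fast muscle markers on chip A summed to 1088 in the adipose-labelled sample, 1544 in pancreas, 57.9 in liver and 351 in hypothalamus, and to 287200.0 in muscle. The 2 on chip B summed to 2527, 1341, 2545, 1945 and 285400.0 in the same order. In pancreas that sum is Ckm alone, under the bound of 2608, since Atp2a1 read -1287.5 there. Cox6a2 read below 0 in this sample on both chips. The part of either cell type in the Cox8b value was not tested. In the muscle sample, 5 of 6 markers of slow fibres and heart were highest and above noise, among them Myl3 at 36990.0, Tnnc1 at 21935 and Myl2 at 19487, all known from slow fibres and heart, and Myh6, a myosin of the heart, at 10924. The remaining marker of that list, Tnni3, a troponin of the heart, read 742 in muscle, under the bound of 1639.5. It was highest in pancreas, at 2119, also under noise.

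The sequences upstream of the isoform genes are shown for Cox6a1, Cox8a and Cox8b, whose tissue patterns are opposed. Promoter windows run from 250 bases before to 50 after the annotated start and come from RefSeq, build GRCm38.p6, which held a window for 48 of the 59 member genes, with none for Cox6a2. They are read 5′ to 3′ on the gene's strand, with capitals at each E-box (CANNTG, the site of muscle regulatory factors among others, which reads alike on both strands) and at each core site of NRF1, a factor known to act on many respiratory genes, searched on both strands. The windows lie at chr5:115348909-115349208 for Cox6a1, chr19:7217567-7217866 for Cox8a and chr7:140900397-140900696 for Cox8b, all on the minus strand.
Cox6a1: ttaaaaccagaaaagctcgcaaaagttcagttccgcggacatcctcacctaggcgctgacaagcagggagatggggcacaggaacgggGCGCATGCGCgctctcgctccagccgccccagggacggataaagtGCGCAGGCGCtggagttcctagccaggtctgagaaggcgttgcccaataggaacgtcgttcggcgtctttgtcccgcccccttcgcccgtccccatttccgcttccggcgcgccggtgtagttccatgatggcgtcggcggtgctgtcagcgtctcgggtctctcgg
Cox8a: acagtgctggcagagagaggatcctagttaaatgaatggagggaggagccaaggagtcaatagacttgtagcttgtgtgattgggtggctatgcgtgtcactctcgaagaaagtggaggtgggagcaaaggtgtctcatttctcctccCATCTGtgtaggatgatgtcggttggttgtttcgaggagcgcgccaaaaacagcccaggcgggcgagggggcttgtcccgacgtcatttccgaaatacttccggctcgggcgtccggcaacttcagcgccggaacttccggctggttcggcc
Cox8b: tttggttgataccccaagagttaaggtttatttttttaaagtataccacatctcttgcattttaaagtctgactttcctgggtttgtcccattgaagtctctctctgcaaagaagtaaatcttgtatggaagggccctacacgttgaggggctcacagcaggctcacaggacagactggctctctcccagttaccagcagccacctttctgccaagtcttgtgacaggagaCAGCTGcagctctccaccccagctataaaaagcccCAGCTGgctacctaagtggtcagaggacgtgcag

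The Cox8b window held 2 CpG dinucleotides and 48.3% G and C, against 32 and 63% in Cox6a1 and 19 and 56% in Cox8a. The median over the 48 member windows was 19 CpG, and over one window for each of 27025 genes it was 7. Cox8b had the fewest of the 48, and 23.85% of all windows held as few or fewer. It contained 2 E-boxes and no NRF1 core, Cox6a1 2 NRF1 cores and no E-box, and Cox8a 1 E-box and no NRF1 core. An E-box was found in 72.15% of all windows and 70.8% of the member windows, and the NRF1 core in 4.78% of all windows and 16.7% of the member windows, 8 of 48. A match is a run of letters and not a bound site, and the arrays do not measure binding.

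The rest of complex IV was closer to the other complexes. Cox4i1, a subunit that begins assembly, read 20290.0 in pancreas, 46801 in muscle, 20584 in liver, 13563 in hypothalamus and 18236 in the adipose-labelled sample. Cox5a, a subunit on the matrix side, read 1762 in pancreas, under the noise bound, 15709 in muscle, 9621 in liver, 7447 in hypothalamus and 5488 in the adipose-labelled sample. Cox7c, a small membrane subunit, read 5544, 32723, 19431, 12608 and 15634 in the same order by its chip B probe set, while its chip A probe set was below noise in all 5. The probe sets of Cox4i1 and Cox5a and the chip B probe set of Cox7c are of relaxed design, a class that includes the family design. Cox6c read 10824 in muscle, 7162 to 8021 in liver, hypothalamus and the adipose-labelled sample, and 3766 in pancreas, and Cox7b read 3589.8 in muscle, 2139 in liver, 1569 in hypothalamus, 1494 in the adipose-labelled sample and 1436 in pancreas.

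Cox7a2, the form of COX7A found in most organs, did not drop in muscle as Cox6a1 and Cox8a did. It read 12138 in muscle, 9026 in the adipose-labelled sample, 8596 in hypothalamus, 7406 in liver and 4392 in pancreas, with a muscle contrast of 0.78. Cox7a1, its heart and muscle form, was not analysed here. The probe set of Cox7a2 is of family design. Cox7a2l read 2378 in pancreas, 4159 in muscle, 2385 in liver, 5144 in hypothalamus and 1722 in the adipose-labelled sample by one probe set. The other read 2103, 2688, 2688, 4591 and 1605 in the same order, so that both put hypothalamus first and the adipose-labelled sample last among the 4 tissues above noise, with pancreas below its noise bound. Hypothalamus was 1.24-fold above muscle by the first (0.31 on the log2 scale) and 1.71-fold by the second (0.77), where probe sets of a gene differed by a median of 0.28 and by 0.75 at the 90th percentile.

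Complex V had 13 genes, with 10 above noise on all arrays and 9 of these highest in muscle (28.9% of all genes above noise on all arrays). The median muscle contrast was 1.08 over the 13. Atp5j, coupling factor 6 of the stalk, read 789 in pancreas, 21924 in muscle, 6638 in liver, 5264 in hypothalamus and 7678 in the adipose-labelled sample, with muscle 2.86-fold above the next tissue and at least 18.8-fold above the pancreas bound. The subunits of the catalytic head had smaller muscle contrasts than Atp5j, 1.43 for Atp5b and 0.78 for Atp5a1. Atp5b, the beta subunit that makes ATP, read 6429 in pancreas, 30526 in muscle, 13884 in liver, 11810.0 in hypothalamus and 15827 in the adipose-labelled sample. Its partner Atp5a1, the alpha subunit, read 9543 in muscle, 6627 in liver, 6316 in hypothalamus, 5844 in the adipose-labelled sample and 3882 in pancreas on chip A, but was highest in liver on chip B, at 11487 against 9589 in muscle. Both put pancreas last. Atp5c1, the gamma subunit of the rotor, read 8822 in muscle, 4386 to 5704 in liver, hypothalamus and the adipose-labelled sample, and 1876 in pancreas.

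Atp5g1 encodes the c subunit of the proton ring and belongs to a family of 3 genes for the same mature protein. It read 5555 in pancreas, 20759 in muscle, 7219.7 in liver, 4511 in hypothalamus and 2067 in the adipose-labelled sample. Unlike most members it was lowest in the adipose-labelled sample, 10.0-fold below muscle and 2.69-fold below pancreas. Its probe set is of family design, and Atp5g2 and Atp5g3 were not analysed here. Atp5l, the g subunit of the membrane part, read 2301 in pancreas, 15318 in muscle, 7498 in liver, 8973 in hypothalamus and 6517 in the adipose-labelled sample. Atp5j2 was highest in hypothalamus, at 8326, with 7741 in muscle, 7214 in liver, 4786 in the adipose-labelled sample and 3397 in pancreas, so that the first 3 could not be ordered beyond the spread between probe sets. Atp5k and Atp5o were lowest in liver, at 1635 and 4825, and highest in muscle, at 3967 and 12267. Atp5mpl and Atp5md, small membrane subunits, read 13310.0 and 12244 in muscle, and Atp5d and Atp5pb were below noise in every tissue.

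**Figure D5:**
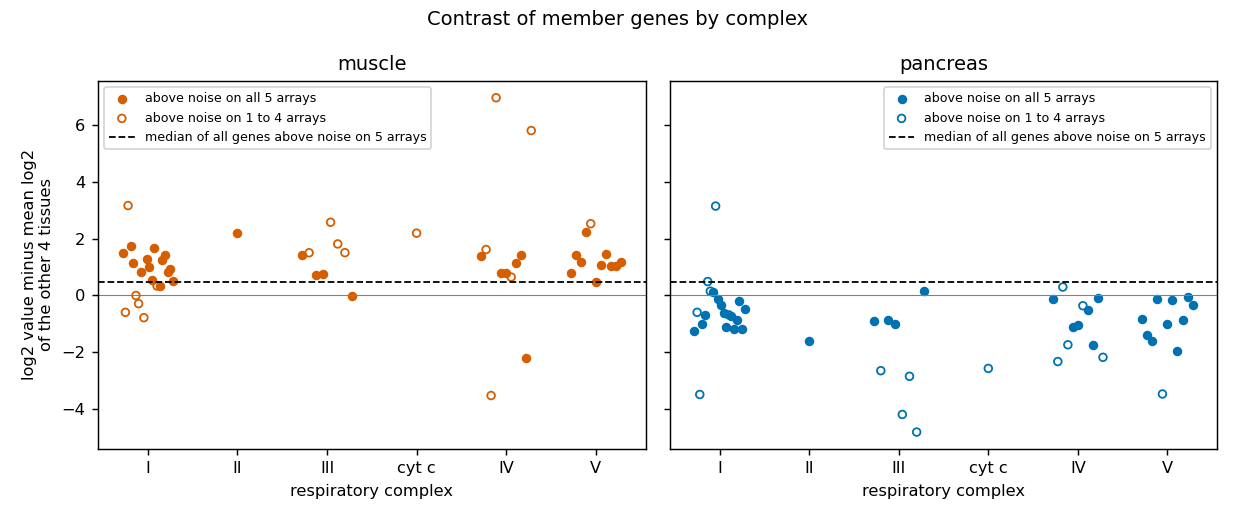
Contrast in muscle (left) and pancreas (right) of the member genes by complex, with 1 point for each gene, filled where it is above noise on all 5 arrays and open where on 1 to 4. The dashed line is the median of the 499 genes above noise on all arrays (0.46 in muscle, 0.48 in pancreas), above which most members lie in muscle and below which nearly all lie in pancreas.

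Other mitochondrial genes were given from lists that do not overlap the subunits, save for the assembly factors. Of 10 genes of the citric acid cycle and pyruvate oxidation on the chips, 6 were highest in muscle (22.5% of all genes). Above noise, 4 were called for muscle (3.44% of all genes) and 1, Suclg2, for liver. Calls for liver, above noise or not, were 4.68% of all genes. Their median contrast was 1.70 in muscle and -1.44 in pancreas. Idh3a, a subunit of the NAD-dependent isocitrate dehydrogenase, read 3087 in muscle and 113 to 1219.8 elsewhere, and Suclg2, a subunit of succinyl-CoA ligase, read 7072 in liver and 329 to 1469 elsewhere. Of 9 carriers and porins, 3 were called for muscle (Slc25a4, Vdac1 and Vdac3), 1 for hypothalamus (Ckmt1) and 1 for pancreas (Ucp3), all above noise. The shares of all genes called above noise were 3.44% for muscle and 4.60% for pancreas. For hypothalamus the share was 6.44%, above noise or not. Ucp3 read 1310 in pancreas, near the bound of 1166 there, and 28.1 in muscle. It was at least 1.23-fold above the muscle bound. Ckmt1, a mitochondrial creatine kinase, read 6725 in hypothalamus and 253 to 821 elsewhere. Slc25a5 and Vdac1 are added here after their values were seen. The ADP/ATP carriers had opposite muscle contrasts, 4.27 for Slc25a4 and -2.19 for Slc25a5, with Slc25a4, known from heart and muscle, at 16586 in muscle and 64.9 to 4881 elsewhere, and Slc25a5, a form of many tissues, at 1153 in muscle and 3292 to 7647 elsewhere. Vdac1, a porin of the outer membrane, read 19685 in muscle and 1207 to 4773 elsewhere.

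Assembly and copper delivery factors had a median muscle contrast of -0.09 over 8 genes, 2 of them Ndufaf1 and Ndufaf4. Highest in muscle were 2 genes (22.5% of all genes), Cox17 and Oxa1l, both under noise in every tissue. Of the 8, 2 others, Sco2 and Cox18, were above noise in muscle, so that this median rests mostly on values under noise. Over the 2 genes above noise on all arrays it was 0.11. Sco2, a copper chaperone of complex IV, read 3511 in liver and 714 to 1325 elsewhere, and Atpif1, the inhibitor of ATP synthase, read 4276 in hypothalamus, 1056 in pancreas and below 0 in muscle. Of 7 regulators of mitochondrial genes, 3 were above noise anywhere. Esrra, an orphan nuclear receptor, read 2389 in pancreas and 1274 in muscle, Gabpb1 read 410 in hypothalamus, and Tfb2m, a mitochondrial transcription factor, read 306 in hypothalamus. The erythroid list was visible in all tissues through Hba-a1, alpha globin, which read 43774 in pancreas, 23972 in muscle, 17288 in liver, 6135 in hypothalamus and 21576 in the adipose-labelled sample. Slc4a1, the anion exchanger of red cells, read 1474 in muscle, 859 in pancreas, below noise, and 463 to 493 elsewhere. Of 5 macrophage markers, 2 were called for the adipose-labelled sample above noise, Csf1r and Mrc1 (3.16% of all genes, above noise or not). The part of either in the members' values was not tested.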

How the data were processed

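Biotin-labelled cRNA from 10 ug of total RNA was hybridised to 1 array per tissue and chip, per the labels' protocols. The authors deposited intensities on a linear scale, in whole numbers, some below 0, with trimmed means of 500.76 to 501.51. The software was not given in the sources used here. Gene symbols came from the platform annotation. Control probe sets (61 on chip A) were removed, arrays of a chip were scaled to one trimmed mean (2% off each end), and the floor was the median of the array medians. Where a gene had several probe sets, the one ranking highest in mean log2 value on its chip stood for it. Of the 68 member probe sets, 21 are of relaxed design, 18 of these of family design, and the text does not mark every one. Levels were not compared between chips. A call needed at least 2-fold over every other tissue. With 1 array per tissue no p-value was computed.

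Members and lists were chosen with earlier results of these data known. Any member may be named. All 5 values are given for isoforms, for the 3 largest and the smallest muscle contrast of each complex among genes above noise in muscle, for Sdh genes, Cycs and Cyc1, and for calls above noise, and values of further members are added. Of each other list the 2 genes with the largest tissue difference above noise are named, except the brown adipocyte list, where 1 gene was above noise anywhere. Other names in those lists, the markers beside Cox8b among them, were chosen after their values were seen. In all, 12 alternatives covered scaling, floor, probe sets, chips and tissues. The lowest-tissue counts, the shares under noise in 1 tissue alone, the marker sums, the CpG counts and the Cox6a1 and Cox8a promoters were not planned, and a planned comparison of protein sequences was not made. Python 3.11.15, pandas 2.3.3 and scipy 1.17.1 were used.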

Additional observations from a re-analysis of the deposited data

How the results depend on the processing

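Of 872 recomputed values, 723 moved by less than the median difference between probe sets of a gene (0.28) or, for counts, by under 1.5 times, 128 moved more and 21 also changed sign. The 44 genes highest in muscle were 9 of 14 on chip B alone, which holds fewer genes, and 38 to 45 of 59 in settings with all genes. The share of all genes highest in muscle was 21.5% on chip B alone. In settings with all genes it ran from 7.56% with the highest noise bound as floor to 31.1% without the pancreas arrays. The 16 genes at least 2-fold higher in muscle were 10 with 75th percentile scaling, 8 with quantile normalization, 10 with spikes, 10 with probe sets above noise set equal and 5 on chip B alone. Spike scaling moved all genes above noise, by 0.37 in muscle and by -2.28 in pancreas, and it moved the member medians to -2.91 in pancreas, 1.45 in muscle, 0.79 in hypothalamus and 0.60 in the adipose-labelled sample. Under it complexes I, IV and V had muscle medians of 1.40, 1.33 and 1.59, and Cox6a1 and Cox8a muscle contrasts of -3.01 and -1.69. Against all genes above noise the members kept their signs in muscle, liver and pancreas under every setting. Scalings that multiply an array by a common factor move members and those genes together, so they could hardly change these signs. The member medians minus those of all genes above noise ranged from -0.10 to 0.43 in hypothalamus and from -0.27 to 0.12 in the adipose-labelled sample. The member median in liver was 0.36 with 75th percentile scaling, and that in pancreas -1.15 on chip B alone. On chip B alone the muscle medians of complexes I, IV and V were 1.51, 1.41 and 0.46. Complex III had 1.02 with the highest noise bound as floor and 0.72 without pancreas, and complex IV 0.57 with quantiles, 0.12 without relaxed designs and 0.45 on chip A alone. The 0.12 and 0.45 rest on the chip A probe set of Cox7c, which was below noise in every tissue. Cox6a1 had -3.84 with quantiles and -2.85 with the noise floor. Cox6a2 had 6.55 with quantiles, 5.18 with the 75th percentile floor, 3.31 with the noise floor, 7.34 over both probe sets and 7.72 on chip B alone. Cox8b had 4.47 and 3.65 with those floors and 6.39 without the adipose-labelled arrays. Values that changed sign outside these were, with spikes, complex I 0.79 and 0.54, complex IV 0.96 and 0.67 and complex V 0.79 and 0.63 in hypothalamus and the adipose-labelled sample, Ndufaf1 0.32 and Uqcrq 0.49 in muscle. Others were complex I in liver with 75th percentile scaling (0.11), complex IV and V in hypothalamus with quantiles (0.57 and 0.33), complex V in liver with quantiles (-0.30) and without pancreas (-0.35), complex III without pancreas in liver, hypothalamus and the adipose-labelled sample (-0.0034, -0.42 and -0.35), and Ndufa10 in muscle over both probe sets (0.038) and without the adipose-labelled arrays (0.58). The cause of these changes was not tested. No paired analysis was possible because each tissue has 1 array on each chip. Signals under an array's noise bound, highest in pancreas, would not be seen.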
